A study of Rattus norvegicus with 16 samples.

Results

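Expression of the proteasome genes was compared between the stomach and the middle part of the intestine of suckling rats, and between rats given obestatin and rats given saline. The genes were those whose name in the array design begins with Psm, a letter from a to g and a number, which are the names of the subunits, activators and assembly factors of the proteasome. This rule gave 50 genes of the 26115 gene names with a probe, covered by 57 of 30367 probes. For each gene the probe with the highest mean log2 Cy5 signal over the 16 arrays was taken, and of these probes 49 passed the filter on dim signals and were tested among 21174 probes. Psma8, the alpha subunit known from testis, was not tested because its probe was well above background on 1 and 3 of 4 stomach arrays in C and OH, and on 0 and 1 of 4 arrays of the middle intestine. The other 49 probes were well above background on all 16 arrays. Psmc3ip meets the naming rule but encodes an interacting protein of a subunit and not a subunit itself. The probes of Psma3 and Psma3l start at 93112068 and 93111009 on the plus strand of chromosome 6 (rn4). They may thus report transcripts of the same locus, so that their values are uncertain, though they are counted as separate members.

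The arrays held stomach from 4 C and 4 OH pups and middle intestine from 4 C and 4 OH pups, all Wistar (Han) rats. Group OH was gavaged with obestatin, which derives from the precursor of ghrelin, in doses of 250 nmol/kg body weight given 2 times a day between day 14 and day 21 after birth. Group C was gavaged with saline. All pups stayed with their dams, were breast-fed and were killed on day 21. Each array represented a single rat. The paper counts litters by treatment, which reads as each litter having received a single treatment. The litter of each rat is not given in the sources used here, so that the p-values measure the spread between these samples. Differences between litters thus could not be separated from those between OH and C. Whether arrays with the same number in stomach and middle intestine came from the same rat is likewise not given. The paper's wording allows that the rats of a group gave both tissues. All arrays were fitted as independent. The p-values that use both tissues may thus rest on fewer rats than arrays. Tissue RNA was labelled with Cy5 and hybridised with a Cy3-labelled pool of RNA from all rats, without a dye swap. The values below are log2 ratios of Cy5 to Cy3, so that 0 stands for the level of the pool.

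The 4 groups lay on 4 different slides, and the slides of OH were scanned on another day than those of C, so that treatment, slide and scan day cannot be told apart. The tissues were compared between slides of the same scan day. Since each tissue lay on its own slide within a treatment group, tissue and slide cannot be told apart either. Across arrays the median raw signal ranged from 163 to 328 in Cy5 and from 188 to 399 in Cy3, and between 69.4% and 77.6% of the spots were well above background. Within groups, Pearson's r between arrays lay between 0.707 and 0.943 (across probes). All 9 stomach mucosa markers tested were higher in stomach and 9 of 11 enterocyte markers were lower there, in both C and OH rats. Of all probes, 22.7% were higher and 22.3% lower in C stomach, and 19.2% and 19.1% in OH stomach. Cdx1 went the other way, higher in stomach by 0.37 in C and by 0.29 in OH (adjusted p under 0.05 in C alone, limma). In C middle intestine 2 of the 9 stomach markers, and in OH 1, were well above background on no array. They passed the filter only through other groups, so that their direction was partly set by it. A library stood apart in C stomach: the mean log2 ratio of 11 striated muscle genes was -1.19 in replicate 2 and between 3.17 and 3.80 in the other replicates of this group. In OH middle intestine, the mean of 6 pancreatic enzyme genes was -1.36 in replicate 4 and between -3.74 and -3.38 in the others.

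The proteasome degrades proteins that carry ubiquitin chains. Its 20S core is a stack of rings of alpha subunits, which form the gate, and of beta subunits, of which the products of Psmb5, Psmb6 and Psmb7 carry the catalytic sites in most cells. In immune cells and in cells exposed to interferon, the products of Psmb8, Psmb9 and Psmb10 take the places of those of Psmb5, Psmb6 and Psmb7 during assembly, which gives the immunoproteasome, an enzyme known for cutting peptides that suit MHC class I molecules. The core is opened by the 19S regulator, made of ATPase and non-ATPase subunits, or by other activators such as the interferon-inducible PA28 ring formed by the products of Psme1 and Psme2.

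The immune and constitutive subunits of a site are related proteins, and the probes that told them apart are shown for 5 of the 6 catalytic subunits, 5' to 3' on the strand named, with rn4 coordinates of the array design. The probe of Psmb10, at chr19:35777711-35777770 on the minus strand, is given by position alone. Each probe has 60 bases, and the probe of Psmb7 spans an intron, so that its ends lie 19875 bases apart in the genome.
Psmb8, chr20:4787980-4788039, minus strand: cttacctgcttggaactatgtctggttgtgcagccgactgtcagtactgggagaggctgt
Psmb5, chr15:32690134-32690193, minus strand: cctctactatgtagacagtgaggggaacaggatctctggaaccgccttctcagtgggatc
Psmb9, chr20:4806341-4806400, plus strand: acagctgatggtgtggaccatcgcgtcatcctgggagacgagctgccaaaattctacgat
Psmb6, chr10:57371368-57371427, plus strand: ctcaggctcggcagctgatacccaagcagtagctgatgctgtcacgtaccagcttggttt
Psmb7, chr3:18413231-18433105, minus strand: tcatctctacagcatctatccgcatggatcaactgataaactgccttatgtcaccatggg
The probes of Psmb8 and Psmb5 shared no run longer than 7 bases, those of Psmb9 and Psmb6 none longer than 8 and those of Psmb10 and Psmb7 none longer than 5. In the best ungapped alignment of each pair, 19, 20 and 18 of 60 bases were identical, respectively.

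Promoter sequences from RefSeq were matched by symbol to 44 of the 50 genes, with 250 bases before and 50 bases after the transcription start on GRCr8. The 130 bases from 120 before the start to the tenth base of the transcript are shown for the immune and constitutive catalytic subunits and for Psme1 and Psme2, since these genes separated in the data below. Capitals mark the 10 letters of GAAA, any 2 bases and GAAA, the core of the interferon-stimulated response element, or the 9 letters of TGACNNNGC, the core of the antioxidant response element, on either strand.
Psmb8, chr20:4657022-4657151, minus strand: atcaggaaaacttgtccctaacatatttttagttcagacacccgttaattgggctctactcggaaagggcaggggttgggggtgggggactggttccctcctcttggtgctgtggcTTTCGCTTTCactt
Psmb10, chr19:50743283-50743412, minus strand: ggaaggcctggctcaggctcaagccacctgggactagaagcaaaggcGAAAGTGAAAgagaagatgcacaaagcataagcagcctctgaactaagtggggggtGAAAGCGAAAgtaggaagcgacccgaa
Psme2, chr15:33052742-33052871, minus strand: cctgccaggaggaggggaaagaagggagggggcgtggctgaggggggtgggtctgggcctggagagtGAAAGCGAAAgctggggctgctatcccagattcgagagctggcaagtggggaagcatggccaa
Psme1, chr15:33038851-33038980, plus strand: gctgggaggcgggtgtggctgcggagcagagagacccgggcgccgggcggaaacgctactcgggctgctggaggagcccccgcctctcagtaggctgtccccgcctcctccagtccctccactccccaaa
Psmb9, chr20:4668880-4669009, plus strand: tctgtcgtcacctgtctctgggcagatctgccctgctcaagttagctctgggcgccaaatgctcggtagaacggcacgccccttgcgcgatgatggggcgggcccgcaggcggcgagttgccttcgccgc
Psmb5, chr15:32047370-32047499, minus strand: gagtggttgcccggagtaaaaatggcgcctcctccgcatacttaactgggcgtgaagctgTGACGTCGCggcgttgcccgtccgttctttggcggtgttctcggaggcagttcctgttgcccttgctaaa
Psmb6, chr10:55737768-55737897, plus strand: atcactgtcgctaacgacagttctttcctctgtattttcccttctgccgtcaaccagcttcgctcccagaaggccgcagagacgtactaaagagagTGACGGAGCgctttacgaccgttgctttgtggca
Psmb7, chr3:42827461-42827590, minus strand: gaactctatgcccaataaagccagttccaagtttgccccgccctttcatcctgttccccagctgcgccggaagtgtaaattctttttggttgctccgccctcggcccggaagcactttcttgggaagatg
The core of the interferon-stimulated response element was present once in the Psmb8 promoter, from 4 bases before the start, counted as base 0, to base 5 after it. It was present 2 times in the Psmb10 promoter, with first bases at -73 and -17, and once in the Psme2 promoter, with its first base at -53. The letters were not found in the windows of Psmb9, Psme1, Psmb5, Psmb6 or Psmb7. In the full windows, 7 of 44 proteasome promoters held this motif (Psma4, Psmb3, Psmb8, Psmb10, Psmd7, Psme2 and Psmg4), against 3.92% of 33469 promoters of the same length. Among the antigen processing genes listed below, it was present in 6 of 12 promoters. TGACNNNGC was present in the promoters of Psmb5 and Psmb6 and in 8 of 44 proteasome promoters, against 12.1% of all. TTCNNNGAA, known as the gamma-activated site, was present in 4 of 44 against 8.87% of all, and CCAAT in 22 of 44 against 37.5% of all. The starts of Psmb9 and Tap1 lie head to head on chromosome 20, 457 bases apart, and the start of Psmb8 lies 12.0 kb from that of Psmb9 and 4.74 kb from that of Tap2. Between the starts of Psmb9 and Tap1, the core of the interferon-stimulated response element was present with its first base at -121 from that of Tap1. This match lies outside the window of Psmb9.

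The comparison of stomach with middle intestine showed the immune catalytic subunits and the PA28 subunits as the members with the largest differences. Psmb8, Psmb9 and Psmb10 were 13.7-, 10.3- and 5.96-fold lower in the stomach than in the middle intestine of C rats, Psme2 and Psme1 were 2.86- and 2.25-fold lower, and none of Psmb5, Psmb6 and Psmb7 passed the test. Of the 49 members tested, 21 were lower and 1 was higher in C stomach, with limma and a Benjamini-Hochberg adjusted p threshold of 0.05. Of all 21174 probes, 44.9% passed in this comparison, 22.7% higher and 22.3% lower. In OH rats 14 members were lower and 0 higher, against 38.2% of all probes, 19.2% higher and 19.1% lower. The median difference of the members was -0.24 in C, against -0.01 for all probes, and -0.09 in OH, against 0.01 for all probes. The median in C was -0.12 without C middle intestine replicate 3. Without Psmb8, Psmb9, Psmb10, Psme1 and Psme2, 16 of 44 members were lower and 1 was higher in C stomach, and 9 were lower and 0 higher in OH stomach.

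Psmb8 encodes the immune beta5 subunit, which replaces that of Psmb5. Its log2 ratios were -2.90, -3.71, -2.42 and -3.25 in C stomach and -3.12, -3.47, -3.44 and -3.00 in OH stomach. They were 0.95, 0.07, 1.36 and 0.45 in the middle intestine of C rats and 0.91, 1.16, 0.36 and 0.37 in that of OH rats. All stomach arrays lay below all arrays of the middle intestine. The tissue difference was -3.78 (SE 0.30, adjusted p = 1.74e-07, limma) in C rats and -3.96 (SE 0.30, adjusted p = 1.13e-07, limma) in OH rats.

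Psmb9 encodes the immune beta1 subunit. On the log2 scale its ratios were -1.64, -2.79, -1.32 and -1.78 in C stomach and -1.95, -2.39, -2.35 and -1.98 in OH stomach. They were 1.81, 1.25, 1.86 and 1.02 in the middle intestine of C rats and 1.22, 1.38, 2.03 and 1.00 in that of OH rats. The tissues did not overlap in either treatment group. The tissue difference was -3.37 (SE 0.30, adjusted p = 5.76e-07, limma) in C rats and -3.57 (SE 0.30, adjusted p = 3.36e-07, limma) in OH rats.

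Psmb10 encodes the immune beta2 subunit. Its stomach arrays gave log2 ratios of -1.62, -2.24, -1.54 and -1.70 in C and -1.76, -2.01, -2.04 and -1.80 in OH. Its intestine arrays gave 1.00, 0.60, 1.01 and 0.58 in the middle intestine of C rats and 0.89, 0.88, 0.64 and 0.65 in that of OH rats. Here too the tissues were fully separated. The tissue difference was -2.58 (SE 0.16, adjusted p = 1.15e-08, limma) in C rats and -2.67 (SE 0.16, adjusted p = 8.38e-09, limma) in OH rats.

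Psmb5, the constitutive beta5 subunit, had log2 ratios of -0.11, 0.12, -0.11 and -0.11 in C stomach and 0.03, 0.09, 0.20 and 0.28 in OH stomach. In the middle intestine they were 0.01, -0.18, 0.11 and -0.10 in C and 0.16, 0.16, 0.08 and 0.24 in OH. The tissues overlapped. The difference was -0.01 in C rats, with a 95% confidence interval from -0.22 to 0.20 (adjusted p = 0.938, limma).

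Psmb6, the constitutive beta1 subunit, had log2 ratios of 0.01, -0.04, -0.05 and -0.04 in C stomach and -0.24, -0.03, -0.02 and 0.01 in OH stomach. In the middle intestine they were 0.17, -0.26, 0.45 and -0.07 in C and -0.03, 0.24, -0.31 and 0.02 in OH. The values of the intestine were spread on both sides of those of the stomach. The difference was -0.10 in C rats, with an interval from -0.41 to 0.21 (adjusted p = 0.594, limma).

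Psmb7, the constitutive beta2 subunit, had mean log2 ratios of 0.03 ± 0.05 (SD, n = 4) and 0.07 ± 0.11 in the stomach of C and OH rats, and of -0.24 ± 0.27 and -0.14 ± 0.27 in their middle intestine. The single values in C middle intestine were -0.18, -0.55, 0.09 and -0.33, and those in OH middle intestine were -0.13, 0.13, -0.50 and -0.06, so that both groups reached the range of the stomach. The difference of 0.27 in C rats, higher in stomach, had an interval from -0.04 to 0.58 (adjusted p = 0.14, limma). Without C middle intestine replicate 3 it was 0.38 and passed (adjusted p = 0.0398, limma). A difference as large as that of Psmb10, the least changed of the immune subunits, lay outside the intervals of Psmb5, Psmb6 and Psmb7 in C.

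**Figure D1:**
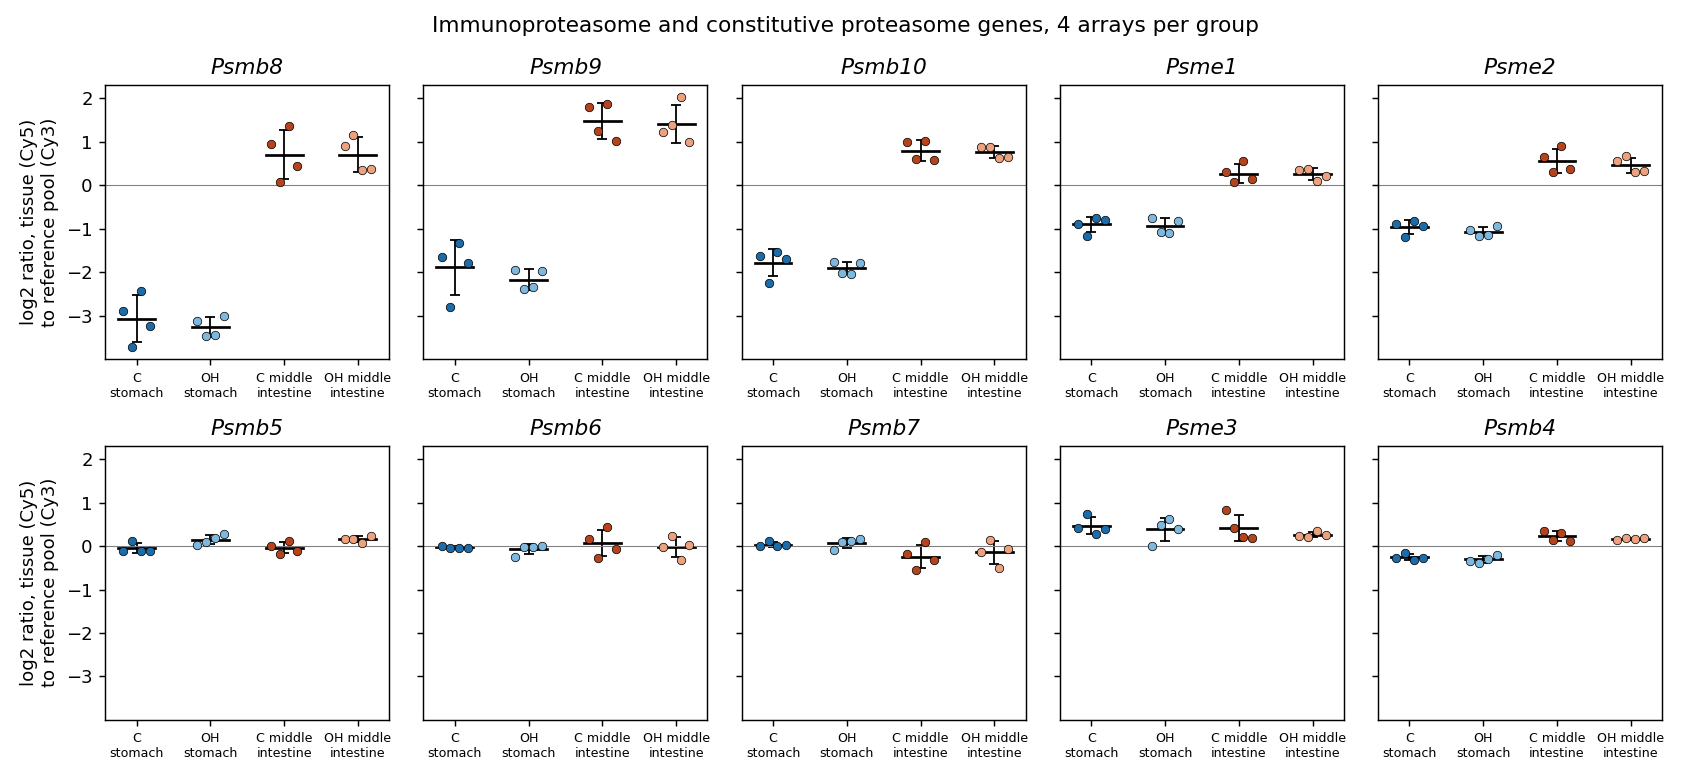
Log2 ratio of Cy5 to the Cy3 pool on each array (vertical axis) for 10 proteasome genes in the 4 groups, with 1 point per rat, the group mean as a horizontal line and the SD as a bar. Psmb8, Psmb9, Psmb10, Psme1 and Psme2 lie below 0 on all stomach arrays and above 0 on all arrays of the middle intestine, while Psmb5, Psmb6, Psmb7 and Psme3 overlap between the tissues.

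The difference between the mean of the immune and the mean of the constitutive catalytic subunits was taken on each array, which removes any shift common to the array. It was -2.02, -2.98, -1.71 and -2.20 in C stomach and -2.18, -2.68, -2.71 and -2.41 in OH stomach. It was 1.25, 0.97, 1.20 and 0.85 in the middle intestine of C rats and 1.01, 0.96, 1.25 and 0.61 in that of OH rats. The stomach was below the pool and the intestine above it on every array, relative to the constitutive subunits. Between the tissues this difference changed by -3.29 in C rats (9.81-fold) and by -3.45 in OH rats (10.9-fold). Nearly the whole change came from the immune side, since the mean of Psmb5, Psmb6 and Psmb7 differed by 0.05 between the tissues in C and by 0.05 in OH. Leaving out each array in turn gave values between -3.47 and -3.04 in C, with the smallest size without C stomach replicate 2, and between -3.57 and -3.35 in OH.

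By site, the tissue change in C rats was -3.77 for Psmb8 less Psmb5, -3.27 for Psmb9 less Psmb6 and -2.85 for Psmb10 less Psmb7. In OH rats the respective values were -3.95, -3.53 and -2.88. The beta5 pair thus had the largest and the beta2 pair the smallest value in both treatment groups, with no test of the order. Within C stomach the beta5 pair ranged from -3.84 to -2.31 and the beta1 pair from -2.75 to -1.27, and in both the lowest value belonged to replicate 2.

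**Figure D2:**
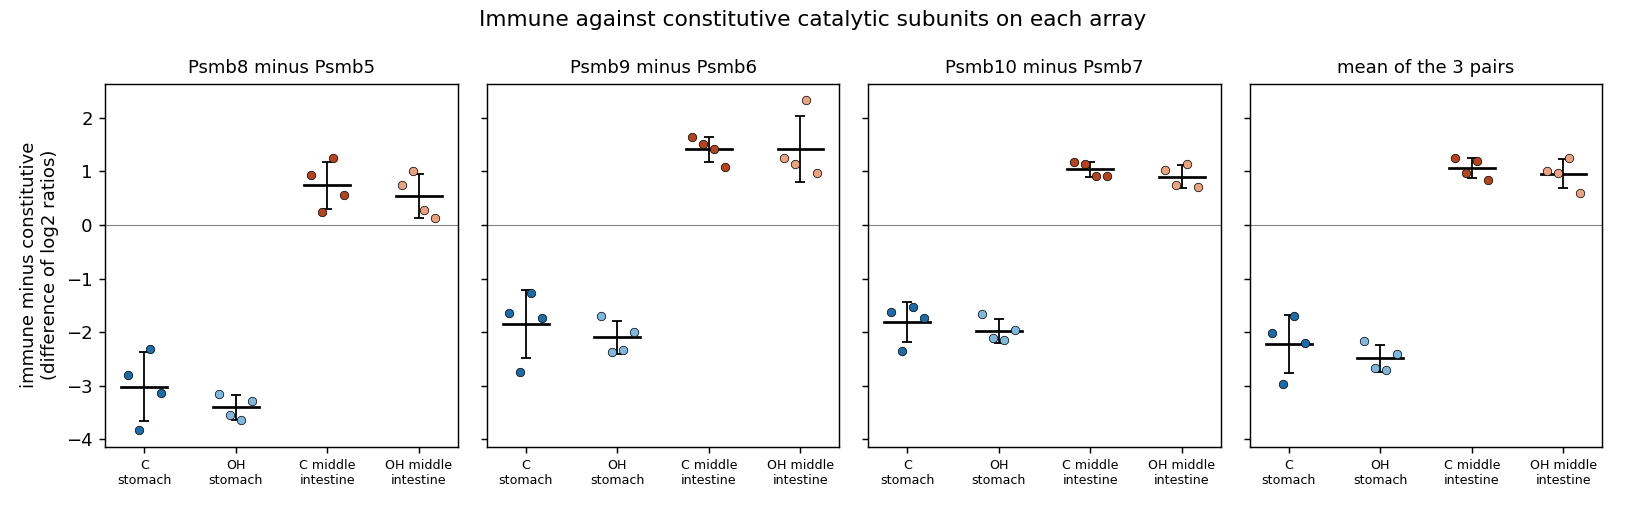
Immune less constitutive catalytic subunit on each array (vertical axis, difference of log2 ratios) for the 3 catalytic sites and for their mean, by group, with 1 point per rat, the mean as a line and the SD as a bar. All 8 stomach arrays are below 0 and all 8 arrays of the middle intestine are above 0 in each panel.

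Among the activators, Psme1 and Psme2, which encode the alpha and beta subunits of PA28, followed the immune subunits with smaller differences. The log2 ratios of Psme2 were -0.90, -1.18, -0.82 and -0.93 in C stomach and -1.03, -1.17, -1.14 and -0.93 in OH stomach. They were 0.65, 0.31, 0.91 and 0.37 in the middle intestine of C rats and 0.55, 0.67, 0.32 and 0.33 in that of OH rats. The tissues were separated on all arrays, with differences of -1.52 (SE 0.14, adjusted p = 8.17e-07, limma) in C rats and -1.54 (SE 0.14, adjusted p = 7.77e-07, limma) in OH rats. The log2 ratios of Psme1 were -0.89, -1.16, -0.76 and -0.80 in C stomach and -0.75, -1.08, -1.09 and -0.83 in OH stomach. They were 0.30, 0.08, 0.56 and 0.14 in the middle intestine of C rats and 0.36, 0.38, 0.10 and 0.21 in that of OH rats. Psme1 was thus also lower on every stomach array, with a difference of -1.17 (SE 0.13, adjusted p = 7.13e-06, limma) in C and -1.20 (SE 0.13, adjusted p = 6.19e-06, limma) in OH.

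Psme3 encodes the gamma form of PA28, a nuclear activator that is not part of the interferon-inducible ring. Its mean log2 ratio was 0.46 ± 0.20 (SD, n = 4) in C stomach and 0.42 ± 0.30 in C middle intestine. The difference of 0.05 had an interval from -0.30 to 0.39 (adjusted p = 0.826, limma). Psme4, which encodes the activator PA200, was measured by a pair of probes that disagreed. The brighter probe gave a tissue difference of 0.25 in C and -0.17 in OH, and the other gave 0.0057 in C and 0.29 in OH, and none of the 4 values passed the test.

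Psmf1 encodes PI31, described as an inhibitor of the core and a carrier of proteasomes. Its brighter probe gave -0.31, -0.38, -0.44 and -0.43 in C stomach and -0.12, -0.15, 0.09 and -0.11 in C middle intestine, without overlap. The difference was -0.32 (SE 0.11, adjusted p = 0.028, limma) in C rats and -0.53 (SE 0.11, adjusted p = 0.00141, limma) in OH rats. The second probe gave 0.17 (adjusted p = 0.613, limma) and 0.15 (adjusted p = 0.683, limma), so that the direction for this gene is not settled by these probes. The call in C was also lost when C stomach replicate 3 (adjusted p = 0.0675), C stomach replicate 4 (adjusted p = 0.064) or C middle intestine replicate 3 (adjusted p = 0.0739, limma) was left out, and with normexp and loess (-0.24, adjusted p = 0.0615, limma).

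Of the 8 alpha subunits tested, 4 were lower in C stomach (Psma1, Psma3l, Psma5 and Psma6), 3 were lower in OH stomach (Psma4, Psma5 and Psma6) and 0 were higher. The values of Psma3l are uncertain, as said above. For this class and those below, the shares of all probes that were lower were 22.3% in C and 19.1% in OH. Psma5 had the largest difference of the class, with log2 ratios of -0.59, -0.51, -0.65 and -0.61 in the stomach of C rats, -0.63, -0.60, -0.60 and -0.59 in that of OH rats, 0.51, 0.10, 0.32 and 0.06 in the middle intestine of C rats and 0.13, 0.19, 0.08 and 0.04 in that of OH rats. The stomach values were nearly equal and the tissues did not overlap. The difference was -0.83 (SE 0.10, adjusted p = 1.25e-05, limma) in C and -0.72 (SE 0.10, adjusted p = 5.54e-05, limma) in OH. Psma6 differed by -0.59 (adjusted p = 0.000152) in C and -0.56 (adjusted p = 0.000267, limma) in OH. Psma1 differed by -0.51 in C (adjusted p = 0.00589, limma), while its value in OH was -0.16 (adjusted p = 0.355), and the difference between these effects was not past the threshold (adjusted p = 0.838, limma). With Cy5 alone the value of Psma1 in C was -0.22 and did not pass (adjusted p = 0.234, limma). The smallest tissue difference in C among the alpha subunits was that of Psma7, at -0.10 (adjusted p = 0.554, limma).

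Among the constitutive beta subunits only Psmb4, a structural member of the ring, passed of 7 tested. Its log2 ratios were -0.28, -0.16, -0.31 and -0.27 in C stomach and 0.35, 0.13, 0.29 and 0.12 in C middle intestine. The tissues did not overlap, and the difference was -0.48 (SE 0.09, adjusted p = 0.0004, limma) in C rats and -0.48 (SE 0.09, adjusted p = 0.000479, limma) in OH rats. Psmb1, Psmb2 and Psmb3 had differences between -0.11 and 0.19 in C and between 0.04 and 0.24 in OH, none past the test. Psmb11, the subunit known from the thymic cortex, was read by a dim probe, with a difference of 0.07 in C (adjusted p = 0.827, limma). Its second probe did not pass the filter on dim signals.

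Of the 6 ATPase subunits of the 19S regulator, Psmc2, Psmc5 and Psmc6 were lower in C stomach, with differences of -0.32, -0.39 and -0.35, and Psmc4 was higher. In OH rats 0 of the 6 passed. Psmc4 was the only member that was higher in stomach in either treatment group. Its log2 ratios were 0.44, 0.12, 0.36 and 0.46 in C stomach and 0.03, -0.53, 0.06 and -0.33 in C middle intestine, without overlap, and the difference was 0.54 (SE 0.16, adjusted p = 0.0126, limma), which is 1.45-fold. In OH rats its values were -0.08, 0.13, 0.24 and -0.08 in stomach and -0.35, -0.05, -0.64 and -0.26 in middle intestine. These overlapped, with a difference of 0.38 (SE 0.16, adjusted p = 0.072, limma), which passed without OH middle intestine replicate 2 (0.47, adjusted p = 0.0356, limma). Psmc3 had the smallest difference of the class, 0.02 in C (adjusted p = 0.88, limma).

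Among the 11 non-ATPase subunits of the 19S regulator, differences between the tissues ranged from -0.34 to 0.21 in C rats. Psmd1, a large scaffold subunit, differed by -0.34 (SE 0.13, adjusted p = 0.0445, limma) and Psmd6 by -0.24 (SE 0.09, adjusted p = 0.0461, limma) in C stomach, and 0 of 11 passed in OH rats. The 2 of 11 lower in C stomach lay near the 22.3% of all probes that were lower there. Psmd7, the partner of the deubiquitinase subunit, and Psmd4, a ubiquitin receptor, each had a difference of 0.04 in C. The median of the class was -0.11 in C and 0.00042 in OH.

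Of the 7 assembly chaperones, 4 were lower in C stomach (Psmd5, Psmd9, Psmg1 and Psmg4) and 3 in OH stomach (Psmd5, Psmd9 and Psmg4). Psmg4, which takes part in building the alpha ring, had log2 ratios of -0.31, -0.26, -0.18 and -0.31 in C stomach and 0.44, 0.42, 0.62 and 0.28 in C middle intestine. The tissues were apart, with a difference of -0.71 (SE 0.11, adjusted p = 0.000112, limma), and its second probe gave -0.64 (adjusted p = 8.85e-05, limma). In OH rats the brighter probe gave -0.38 (adjusted p = 0.0129, limma), which did not pass in a fit of the compared arrays alone (adjusted p = 0.0538, limma). Psmd9, a chaperone of the ATPase ring, gave -0.87 (SE 0.12, adjusted p = 3.48e-05, limma) with its brighter probe and -0.23 (adjusted p = 0.159, limma) with the other in C rats. In OH rats these probes gave -0.71 (adjusted p = 0.000251) and -0.13 (adjusted p = 0.455, limma), so that the size depends on the probe. Psmg3 had a difference of -0.01 in C (adjusted p = 0.953, limma).

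**Figure D3:**
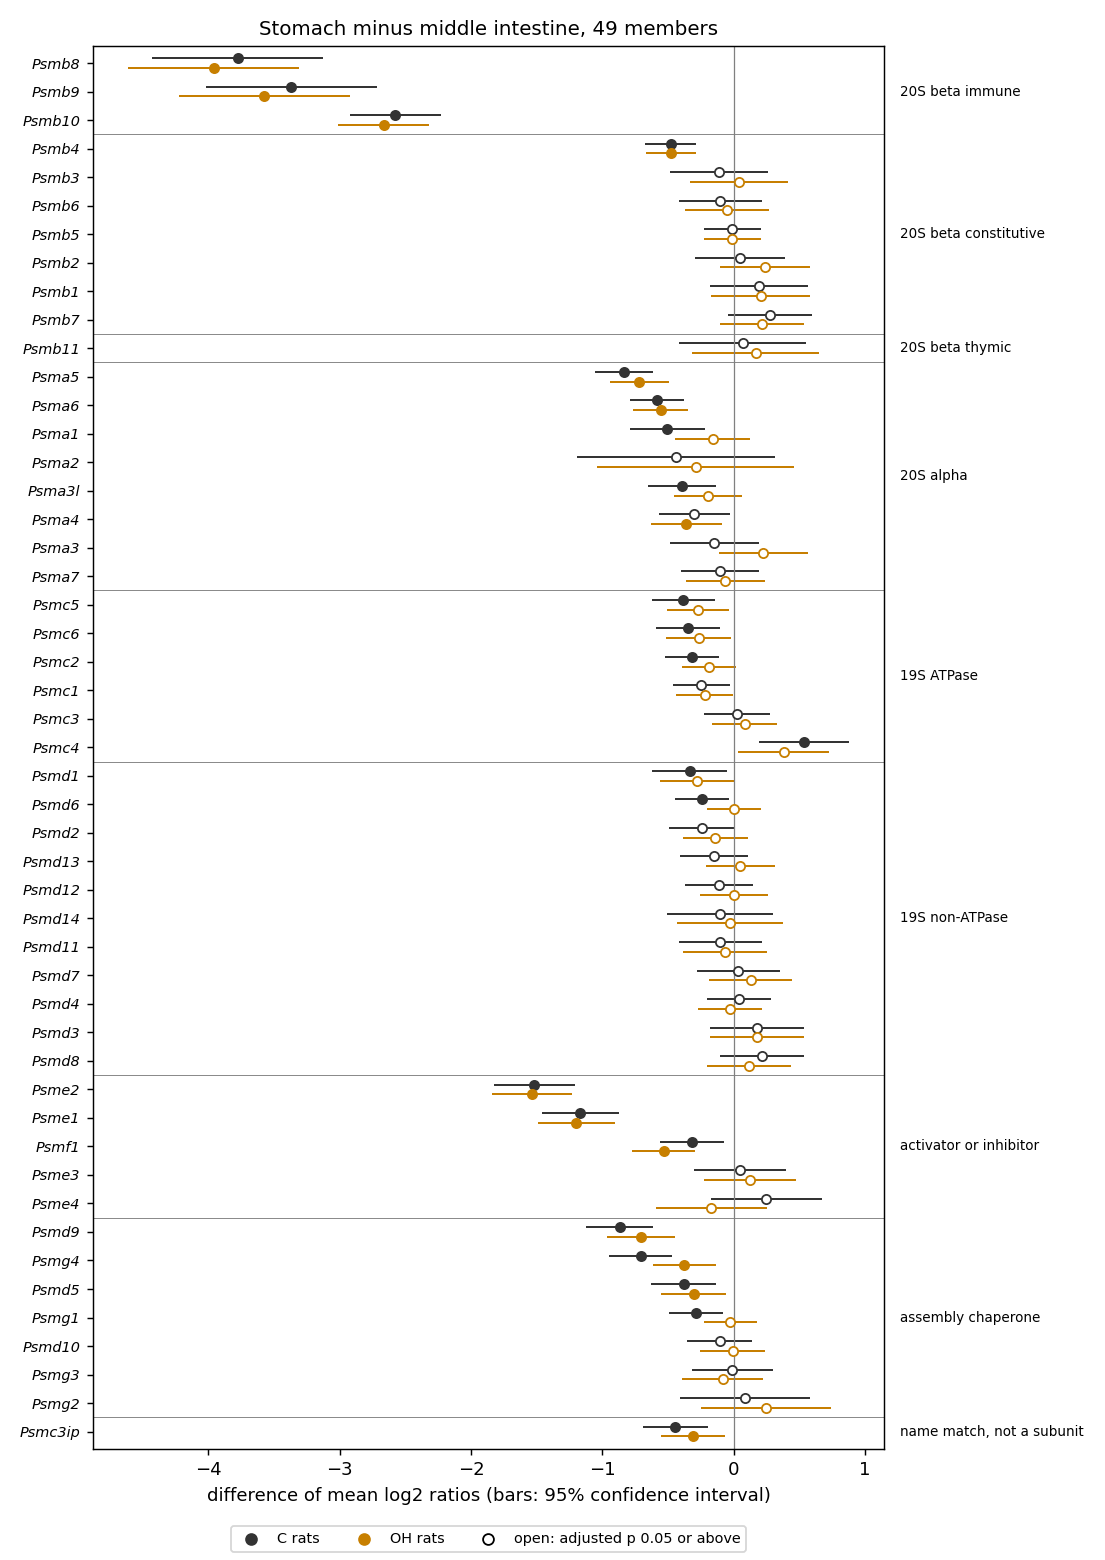
Difference of the mean log2 ratios, stomach minus middle intestine (horizontal axis), for 49 genes grouped by role, in C and OH rats. Points are limma estimates, bars are 95% confidence intervals and open points did not pass an adjusted p of 0.05; Psmb8, Psmb9, Psmb10, Psme1 and Psme2 lie farthest to the left, and Psmc4 in C is the only filled point on the right.

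Arrays of the tissues did not overlap for 21 of 49 members in C rats (20 lower and 1 higher in stomach), against 43.8% of all probes (22.1% lower and 21.7% higher). In OH rats this held for 18 of 49, all lower in stomach, against 35.2% of all probes (17.7% lower and 17.6% higher). The difference of the OH effect between the tissues was past the threshold for 0 of 49 members and for 0% of all probes, while 68 probes and 0 members passed without C stomach replicate 2. At an unadjusted p under 0.05, Psmg4 alone passed this test (0.33, unadjusted p = 0.0483, limma), against 5.85% of all probes.

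In the order of the tissue differences in C, the estimates of Psmb8 and Psmb9 lay within each other's 95% intervals, and so did those of Psmd9 and Psma5. Psmb10 at -2.58, Psme2 at -1.52 and Psme1 at -1.17 followed. The next members, Psmd9 and Psma5, changed by less than 1 on the log2 scale. The SD within a group was also uneven among members. Its median over the 49 members was 0.09 in the stomach of C rats and 0.11 in that of OH rats, and in the middle intestine it was 0.22 in C and 0.17 in OH. In C stomach the highest SD was that of Psmb9, at 0.63, and in both groups of the middle intestine that of Psma2, at 0.68 and 0.56.

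Single arrays moved several members together. In C stomach, replicate 2 was the lowest array for Psmb8, Psmb9, Psmb10, Psme1 and Psme2, and replicate 3 was the highest for all 5. Of all 49 members 9 had replicate 2 as lowest, against 27.9% of all probes, and 9 had replicate 3 as highest, against 16.7%. Replicate 2 was also the lowest array of its group for B2m, the light chain of MHC class I, at -2.61 against -1.23 to -1.02. The same held for Irf1, an interferon-induced transcription factor, at -2.26 against -0.79 to -0.25. Both are among the 13 antigen processing genes listed below. The mean of that list was -1.42 on this array, against -0.93 to -0.68 on the others of the group. This is the array with low striated muscle genes described above, and the part of that difference in its immunoproteasome values was not tested. In contrast, the same array was the highest of its group for 28 of 49 members and for 47.2% of all probes. In the middle intestine, 14 of 49 members had the same array order at the extremes, with replicate 3 highest and replicate 2 lowest in C, and replicate 2 highest and replicate 3 lowest in OH. They were Psma7, Psmb1, Psmb2, Psmb3, Psmb6, Psmb7, Psmb8, Psmc3, Psmc4, Psmd8, Psme1, Psme2, Psmf1 and Psmg2, and the same order was found for 4.79% of 21131 probes with a value on all arrays. This pattern was chosen after the values were seen. On the same arrays, the mean of 11 enterocyte genes was -0.77, -0.39, 0.05 and -0.27 in C and 0.25, 0.93, -1.04 and -0.20 in OH, so that its extremes lay on the same arrays except for the lowest in C, which was replicate 1. Its part in the pattern was not tested.

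The genes that act with the immunoproteasome in antigen processing and interferon response were read from a separate list. Of 13 genes tested, 11 were lower in C stomach (Tap1, Tap2, Tapbp, B2m, Erap1, Irf1, Irf8, Ciita, Cd74, Cxcl10 and Gbp2) and 10 in OH stomach, where Gbp2 did not pass, and 0 were higher. The shares of all probes that were lower were 22.3% in C stomach and 19.1% in OH stomach. The median difference of the list was -1.30 in C and -1.39 in OH. Tap1 and Tap2 encode the transporter that carries peptides into the endoplasmic reticulum, and share the locus of Psmb8 and Psmb9. Tap1 differed by -1.32 (adjusted p = 0.00387) in C and -1.41 (adjusted p = 0.00285, limma) in OH, which is smaller in size than the difference of Psmb9 across the shared start region. Tap2 differed by -1.21 (adjusted p = 0.00278) in C and -0.78 (adjusted p = 0.0375, limma) in OH. Irf8, a transcription factor of immune cells, differed by -3.04 (adjusted p = 8.17e-09) in C and -2.96 (adjusted p = 1.14e-08, limma) in OH. The probe of Ifng was well above background on 0 of 16 arrays.

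Markers of white blood cells moved with the tissue as well, and in whole tissue a smaller share of such cells and less RNA per cell cannot be told apart. Of 12 leukocyte genes tested, 0 were higher and 7 were lower in the stomach of each treatment group. Among all probes 22.3% were lower in C and 19.1% in OH. In each group 2 of the 12 had positive differences that did not pass, up to 0.69 in C and 0.88 in OH. In OH 1 of these 2 had an unadjusted p under 0.05 (limma). Their mean log2 ratio ranged from -1.90 to -1.71 in the stomach of C rats and from -1.73 to -1.35 in that of OH rats. In the middle intestine it ranged from -0.77 to 0.43 in C and from -0.57 to 0.26 in OH. Cd3g, a subunit of the T cell receptor complex, was -2.64 ± 0.26 (SD, n = 4) in C stomach and 2.25 ± 0.17 in C middle intestine, a difference of -4.89 (adjusted p = 6.61e-11, limma). Cd3e was counted among the lower genes in C and OH, and Cd79b in OH. The probes of both were well above background on 0 of 8 stomach arrays. They were tested only through the intestine, so that their direction was partly set by the filter. The part of these cells in the level of the immune subunits was not tested. Other tissue components differed as well. Of 11 striated muscle genes 8 were higher in C stomach and 2 in OH stomach, with median differences of 3.15 and 1.21. In C middle intestine 3 of these 11 genes, and in OH middle intestine 2, were well above background on no array. These passed the filter only through other groups, so that their direction was partly set by it, and the counts and medians include them. Of 6 pancreatic enzyme genes 5 were higher in C stomach and 4 in OH stomach, with medians of 2.54 and 1.81. Prss1 went the other way without passing, at -0.68 in C and -1.74 in OH, where its unadjusted p was under 0.05 (limma). Among all probes 22.7% were higher in C stomach and 19.2% in OH stomach, so that the 2 of 11 striated muscle genes in OH lay near the background. Of 7 smooth muscle genes 1 was lower in C stomach and 0 passed in OH stomach, with medians of -1.38 and -0.13. The part of these components in the tissue differences of the proteasome genes was not tested.

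**Figure D4:**
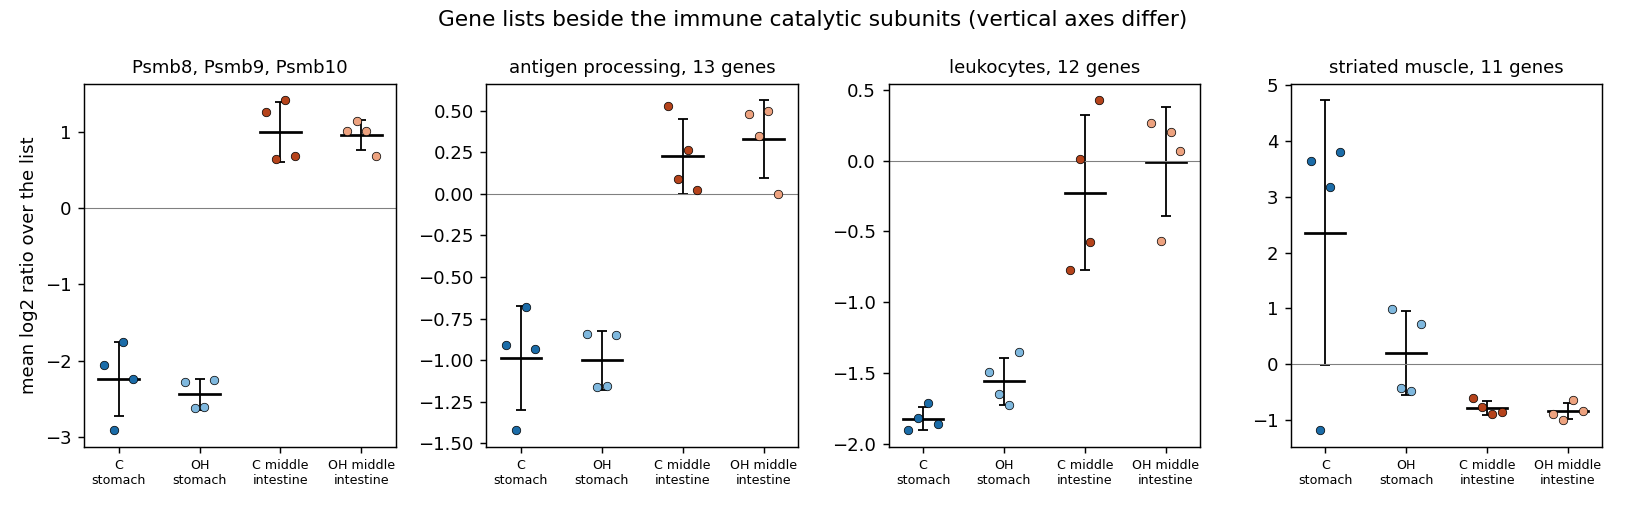
Mean log2 ratio on each array (vertical axes, which differ between panels) of the immune catalytic subunits, 13 antigen processing genes, 12 leukocyte genes and 11 striated muscle genes, by group, with 1 point per rat, the mean as a line and the SD as a bar. The first 3 panels are lower in stomach on all arrays, and in the striated muscle panel C stomach replicate 2 lies at -1.19, apart from the others of its group. The leukocyte mean includes Cd3e and Cd79b, which were tested only through the intestine.

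Other partners of the proteasome passed in both directions. Of 21 genes tested, 4 were higher and 6 lower in C stomach, against 22.7% and 22.3% of all probes, and 3 were higher and 4 lower in OH stomach, against 19.2% and 19.1%, so that these counts lay near the background. Nfe2l2, the transcription factor that acts on antioxidant response elements, was higher by 1.12 (adjusted p = 6.04e-06) in C and 0.87 (adjusted p = 7.68e-05, limma) in OH. Nfe2l1, the factor that raises proteasome genes when the enzyme is inhibited, did not pass, at -0.11 in C and -0.27 in OH. Pomp, the maturation factor of the core, differed by -0.47 (adjusted p = 0.0054) in C and -0.55 (adjusted p = 0.00203, limma) in OH. Akirin2, needed for the import of proteasomes into the nucleus, differed by -0.89 (adjusted p = 3.06e-05) in C and -0.84 (adjusted p = 6.24e-05, limma) in OH. Uchl5, a deubiquitinase of the 19S regulator, differed by -0.93 (adjusted p = 9.13e-05) in C and -0.87 (adjusted p = 0.000193, limma) in OH.

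The comparison of OH with C asked whether obestatin changed these genes within a tissue. In stomach 0 of 49 members passed the adjusted threshold, as did 0% of all probes, and in middle intestine 0 of 49 passed, against 0.368% of all probes. Over both tissues 0 of 49 passed, against 0.685% of all probes. At an unadjusted p under 0.05, limma gave 0 of 49 members in stomach against 10.6% of all probes. The same threshold gave 7 of 49 in middle intestine against 10.5%, and 6 of 49 over both tissues against 14.5%. Tukey's test after an analysis of variance gave 0 of 49 members in stomach, against 3.35% of all probes, and 3 of 49 in middle intestine (Psmd5, Psmd6 and Psmg4, all lower), against 4.43% of all probes. The numbers over all probes in limma rested on single arrays. Without C stomach replicate 2, 311 probes passed in stomach, where 0 had passed, and 481 over both tissues, where 145 had passed. In middle intestine 78 probes had passed, and from 12 (without C middle intestine replicate 3) to 88 passed when each array was left out. Over both tissues the lowest number was 36, without C stomach replicate 1. The number of members was 0 in each of these fits.

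The immune subunits had wide intervals in this comparison. Psmb8 differed by -0.19 in stomach, with an interval from -0.83 to 0.46, and by -0.0034 in middle intestine, from -0.65 to 0.64. Psmb9 differed by -0.29 in stomach, from -0.93 to 0.36, and by -0.08 in middle intestine, from -0.72 to 0.56. Psmb10, with the smallest spread of the immune subunits, differed by -0.12 in stomach, from -0.46 to 0.22, and by -0.04 in middle intestine, from -0.37 to 0.30. The immune less constitutive difference changed with OH by -0.27 in stomach and by -0.11 in middle intestine. Leaving out each array in turn gave -0.52 to -0.09 in stomach, with -0.52 without C stomach replicate 2, and -0.21 to 0.01 in middle intestine.

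Psmb5 had the lowest p of the catalytic subunits for OH against C. It was higher by 0.20 in each tissue and over both tissues (unadjusted p = 0.0112, adjusted p = 0.183, limma), and with Cy5 alone, without the pool, it was -0.21. Psmd5, the chaperone, had the lowest p of the members over both tissues, at -0.27 (unadjusted p = 0.00404, adjusted p = 0.125, limma). Its log2 ratios were 1.08, 0.80, 0.77 and 0.56 in the middle intestine of C rats and 0.53, 0.53, 0.50 and 0.42 in that of OH rats, which did not overlap. In stomach they were 0.48, 0.46, 0.41 and 0.35 in C and 0.05, 0.16, 0.40 and 0.15 in OH, which overlapped by a single array. Arrays of OH and C did not overlap for Psmd5 and Psmd6 in middle intestine, against 5.86% of all probes, and for Psmb1 and Psmd4 in stomach, against 7.59%. Psme4 had the largest estimate in middle intestine with its brighter probe, 0.48 (unadjusted p = 0.0273, adjusted p = 0.391, limma). Its values were 0.15, 0.29, -0.58 and 0.08 in C and 0.37, 0.26, 0.82 and 0.39 in OH, and its second probe was lower in OH, with means of 0.43 in OH and 0.72 in C.

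The Cy3 signal of the pool, hybridised to all arrays, differed between the slides of OH and C. It was higher on the OH stomach slide for 36 of 49 members, against 62.3% of all probes that differed in either direction. On the slides of the middle intestine 14 of 49 differed (11 higher and 3 lower in OH), against 30.6%. Between the tissues 0 of 49 members differed in Cy3 in C and in OH, against 9.68% and 0.997% of all probes. With Cy5 alone, the immune less constitutive difference between the tissues was -3.19 in C and -3.47 in OH.

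**Figure D5:**
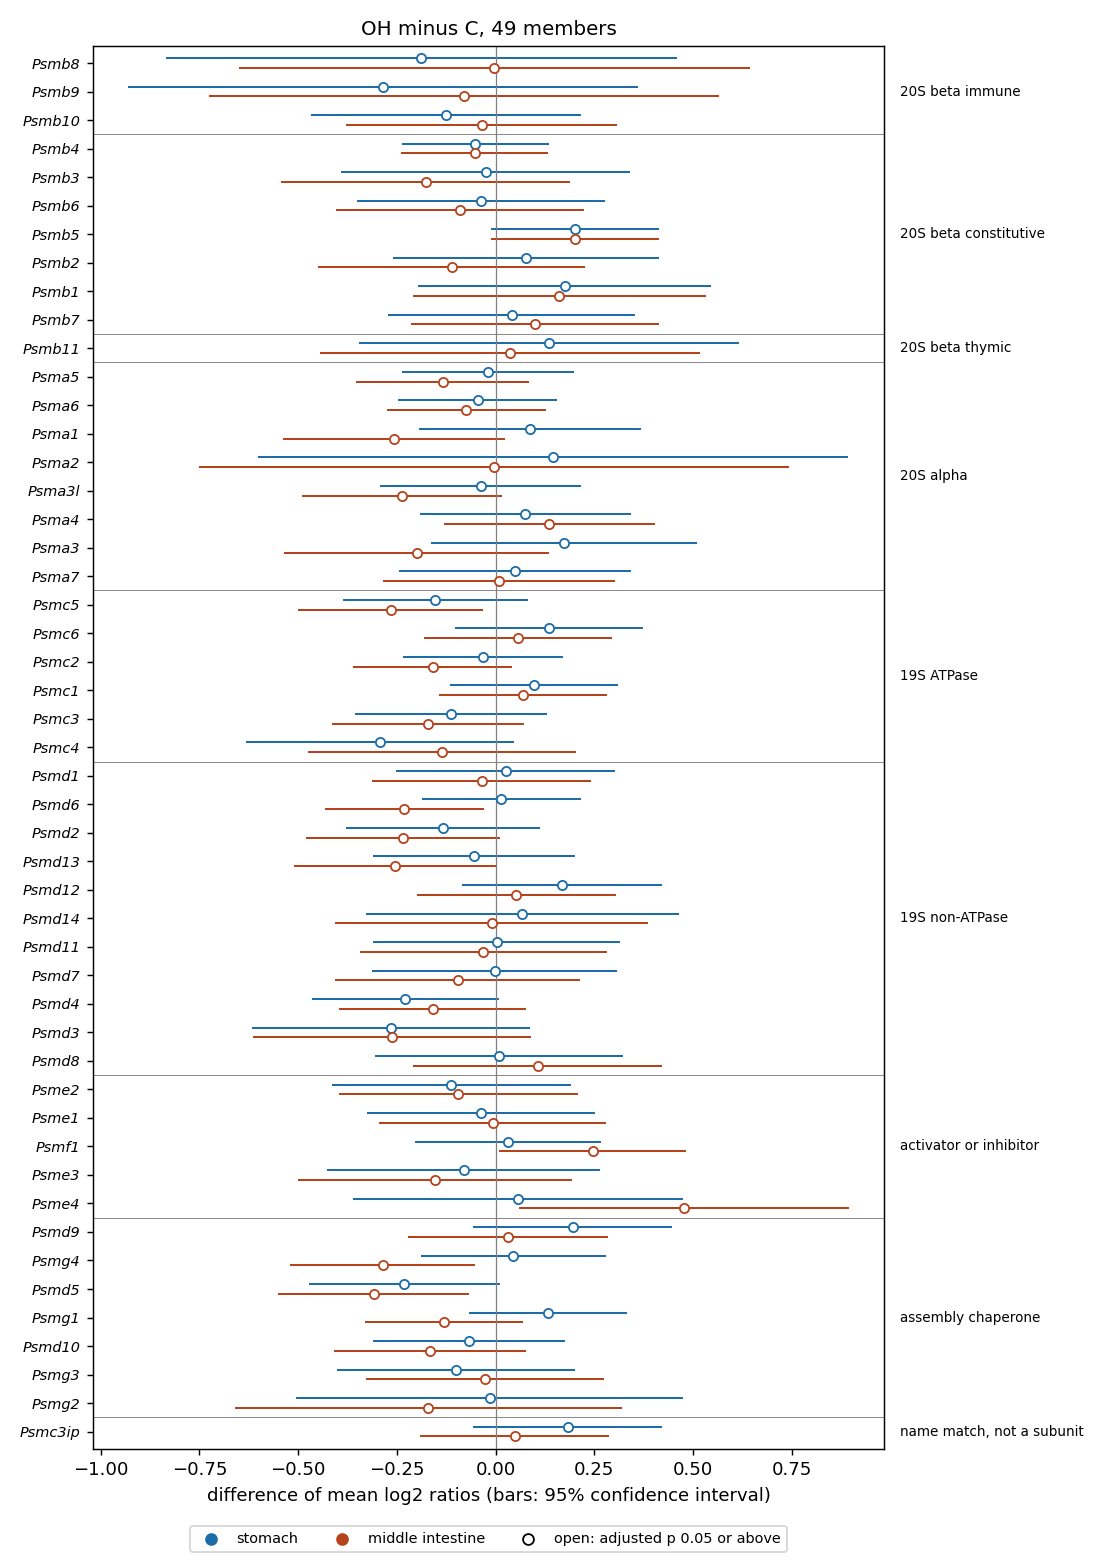
Difference of the mean log2 ratios, OH minus C (horizontal axis), for 49 genes grouped by role, in stomach and middle intestine. Points are limma estimates and bars are 95% confidence intervals; all points are open, since 0 of 49 passed an adjusted p of 0.05 in either tissue, and the interval of Psmb8 in stomach runs from -0.83 to 0.46.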

How the data were processed

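Feature Extraction output of 16 Agilent SurePrint G3 arrays for rat, each with both dyes, was used, 4 per group as labelled. The authors deposited spot intensity values (mean, background and processed signals), the processed ones background-subtracted and Lowess-normalized within each array, together with a table of log10 ratios for the whole series. The file headers name version 10.10.1.1 and the rn4 build, and the submitters' processing notes name version 10.7.3.1. The log2 ratio of processed Cy5 to Cy3 was computed for each spot not marked as an outlier, and spots of a probe were averaged. A probe was kept if, in at least 1 group, at least 0.5 of its spots were well above background in Cy5 on each of the 4 arrays, and if every group had 3 or more values. This left out 9193 of 30367 probes. Of the 21174 others, 43 had a missing value, none of them a probe of a proteasome gene. Gene symbols were taken from the array design, and 68 symbols that differed in 1 file were read from the others.

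Group means were estimated from all 16 arrays by limma (version 3.58.1, R version 4.3.3), using lmFit and eBayes with 2.47 prior degrees of freedom and no block, with the Benjamini-Hochberg adjustment over the 21174 probes and a threshold of 0.05. Intervals cover 95%. The number of arrays limits the precision. The fit was tested on simulated ratios of 21131 probes, 200 of them changed. For OH against C, it called 13.4% of changes of 0.5 on the log2 scale in stomach and 14.9% in middle intestine. Of changes of 1 it called 56.7% and 47.8%, so that most changes of 0.5 would be missed. Means over several genes were given without a test. The genes named were the catalytic and activator subunits, the members with the largest change in each comparison, the largest and smallest of each role, and members whose probes disagree. The members, the lists and the rule for naming were chosen with earlier results of these data known. Alternatives covered background correction, scaling, Cy5 alone, the log10 table, dim and outlier filters, the arrays fitted, blocks, moderation, the analysis of variance with Tukey's test of the methods, probe choice and leaving out each array. Promoters were taken from RefSeq on GRCr8. No protein sequence was used here. Some genes of the lists are not reported here.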

Additional observations from a re-analysis of the deposited data

Results flagged for a closer look

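Of 76 sets of 4 arrays, from 18 of the members and the immune less constitutive difference in each group, 3 held an array whose gap to the nearest of the others was past Dixon's 95% critical value, and chance gives about 1 in 20. Psmb5 in C stomach was 0.12 in replicate 2, with the other arrays at -0.11. Psmb6 in OH stomach was -0.24 in replicate 1, with the others between -0.03 and 0.01. Psmf1 in C middle intestine was 0.090 in replicate 3, with the others between -0.15 and -0.11. None of these 3 arrays decided a call for Psmb5 or Psmb6, and the call of Psmf1 in C was lost without C middle intestine replicate 3 (adjusted p = 0.0739, limma). The effect of OH did not differ between the tissues past the adjusted threshold for any of the 49 members in limma, and at an unadjusted p under 0.05 it did for Psmg4 alone.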

How the results depend on the processing

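Psmb8, Psmb9, Psmb10, Psme1 and Psme2 kept their direction and passed the threshold between the tissues under all alternatives run, in C and in OH. The difference of Psmb8 ranged from -3.86 to -3.52 in C and from -4.00 to -3.86 in OH, leave-one-out aside. The number of members that passed ranged from 19 to 24 in C and from 11 to 18 in OH over the alternatives, and without single arrays from 18 to 23 and from 11 to 16. For OH against C it was 0 in stomach under every alternative. In middle intestine it was 3 by Tukey's test (Psmd5, Psmd6 and Psmg4), which called 936 of 21131 probes. Over both tissues it was 1 of 50 without the filter on dim probes (Psma8), where 2146 of 30367 probes passed. With each array left out it was 0. The labels do not say whether equal numbers mark the same rat, and deviations of equal numbers in both tissues correlated between 0.058 and 0.25 in C and between -0.12 and 0.32 in OH, so that no pairing was assumed. With the replicate number as a block, 20 members passed in C and 11 in OH, and OH against C gave 0. With the rat as a block, should equal numbers stand for the same rat, 20 and 11 passed, and Psmf1 did not pass in C (adjusted p = 0.0608).

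Some values that had not passed changed sign. With Cy5 alone these were Psmb5 for OH against C (-0.28 in middle intestine, -0.15 in stomach, -0.21 over both), Psme4 (-0.030, -0.26 and -0.15), Psmf1 in stomach (-0.0045) and Psmb6 between the tissues in OH (0.033). With normexp and loess these were Psmb5 between the tissues in C (0.0050) and Psmf1 for OH in stomach (-0.019), and with the median of all probes of a gene Psme4 between the tissues in OH (0.060). Leaving out single arrays gave -0.070 to 0.039 for Psmb5 between the tissues in C, -0.055 to 0.030 for Psmb5 in OH, -0.21 to 0.024 for Psmb6 in C, -0.15 to 0.036 for Psmb6 in OH and -0.011 to 0.18 for Psme4, OH against C, in stomach. The causes were not tested. The analysis of variance was not run over both tissues, since it has no such pair of groups. Small changes are limited by 4 arrays a group.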
